A study of Homo sapiens with 14 samples.

Results

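The E2F transcription factors and the retinoblastoma proteins were followed as mRNAs in CWR22Rv1 cells exposed to inhibitors of fucosylation or sialylation. The members were the rows named E2F1 to E2F8, RB1 and RBL1 in the deposited count tables, 10 genes of the 27819 that the 4 tables share. In the SGN-2FF table, which lists no symbols, they were found by NCBI gene number. All 10 passed the filter on low counts in every comparison, with 80 to 3256 counts per library.

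CWR22Rv1 is an established human prostate cancer cell line, and every library came from this line after 72 h. The vehicle DMSO had 3 libraries, 30 μM Fucotrim I had 3, 60 μM Fucotrim II had 2, 100 μM SGN-2FF had 3 and 2 μM P-SiaFNEtoc had 3. The Fucotrims are sugar phosphate analogs aimed at GMDS, the enzyme that starts the conversion of GDP-mannose to GDP-fucose, and less GDP-mannose is a known side effect. SGN-2FF is a fluorinated fucose that cells turn into a GDP-sugar that blocks fucosyltransferases, and P-SiaFNEtoc is a fluorinated sialic acid that blocks sialyltransferases. The doses differ between the compounds, so their values are given side by side and the compounds were not tested against each other. All inhibitors were set against the same 3 DMSO libraries, and a single cell line limits the results to that line. The libraries held 12553094 to 19981453 counts on genes.

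E2F proteins bind the promoters of genes needed for DNA replication and cell division, most of them as dimers with a DP protein. E2F1, E2F2 and E2F3 are known as activators, E2F4 and E2F5 act mostly in repressor complexes of resting cells, E2F6 represses with Polycomb proteins, and E2F7 and E2F8 repress without a DP partner or a pocket protein. The pocket proteins RB1, RBL1 (p107) and RBL2 (p130) hold E2F proteins until cyclin-dependent kinases phosphorylate them. Many E2F genes are themselves E2F targets, and E2F activity also depends on phosphorylation and protein turnover, which mRNA counts do not show.

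The start regions of 6 members show how E2F-like letters are spread over the families, and they are printed because these members include E2F1, which was not called with any inhibitor, and genes that fell. They come from RefSeq on GRCh38.p14 and run from 70 bases before the annotated start to 30 bases from it, 5′ to 3′ on the strand of the gene. Capitals mark the words TTTCCCGC, TTTCGCGC, TTTGCCGC or TTTGGCGC on either strand, which are forms of the E2F consensus.
E2F1, chr20:33686356-33686455, minus strand: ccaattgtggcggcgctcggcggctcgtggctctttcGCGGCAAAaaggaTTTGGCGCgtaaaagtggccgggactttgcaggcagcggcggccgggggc
E2F2, chr1:23531204-23531303, minus strand: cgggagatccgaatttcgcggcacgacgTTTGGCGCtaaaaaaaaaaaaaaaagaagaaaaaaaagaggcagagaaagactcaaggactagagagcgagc
E2F3, chr6:20401809-20401908, plus strand: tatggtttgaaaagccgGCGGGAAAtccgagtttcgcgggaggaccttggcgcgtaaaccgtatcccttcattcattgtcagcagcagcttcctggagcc
RBL1, chr20:37095968-37096067, minus strand: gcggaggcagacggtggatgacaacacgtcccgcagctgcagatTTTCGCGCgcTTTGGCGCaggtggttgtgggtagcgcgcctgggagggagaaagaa
E2F4, chr16:67192085-67192184, plus strand: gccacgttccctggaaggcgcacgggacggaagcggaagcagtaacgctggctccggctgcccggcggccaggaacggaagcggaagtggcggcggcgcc
E2F7, chr12:77065540-77065639, minus strand: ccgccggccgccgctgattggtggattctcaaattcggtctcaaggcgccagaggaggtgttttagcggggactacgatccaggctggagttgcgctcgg
RefSeq windows of 300 bases, 9 in all, were at hand for 8 of the 10 members. A word of 8 letters was found in 4 of the 9 windows, each from a different member, against 3.31% of 35116 promoter windows of the same length and 3.99% of genes counted over all of their windows. In E2F1 the words began 33 and 20 bases before the start, in E2F2 42 bases, in E2F3 53 bases and in RBL1 26 and 16 bases. With the first T dropped, a word of 7 letters was found in 6 of the 9 windows, with those of E2F6 and E2F7 added, against 13% of all windows and 15.3% of genes. The words of E2F7 began 176 and 133 bases before the start, outside the stretch printed above. That of E2F6 began after the start. The start site listed for RB1, position 48476450 of chromosome 13, lies inside the annotated gene, so its window does not hold the first start of RB1. A match describes the letters and does not show that a factor binds there.

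In DMSO the E2F and pocket protein mRNAs spanned a wide range of levels, led by E2F1. On the scale of CPM, counts scaled for library size by TMM over all 14 libraries, divided by the kilobases of annotated exon, E2F1 stood at 58.1 ± 2.54 (SD, n = 3), which was 54.8 times the level of E2F5. E2F4 followed at 25.0 ± 0.394 and E2F2 at 23.1 ± 0.467 CPM per kb. RBL2 was at 15.6 ± 0.598 and RB1 at 15.3 ± 0.238 CPM per kb, and the libraries of these neighbours overlapped. The atypical repressors came next, E2F8 at 8.50 ± 0.176 and E2F7 at 7.70 ± 0.557 CPM per kb, before E2F3 at 6.53 ± 0.123. RBL1 at 5.02 ± 0.456, E2F6 at 4.24 ± 0.193 and E2F5 at 1.06 ± 0.0289 CPM per kb closed the order. RB1 and RBL2 were the only neighbours that overlapped, and only they changed places when the longest annotated transcript gave the length.

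**Figure D1:**
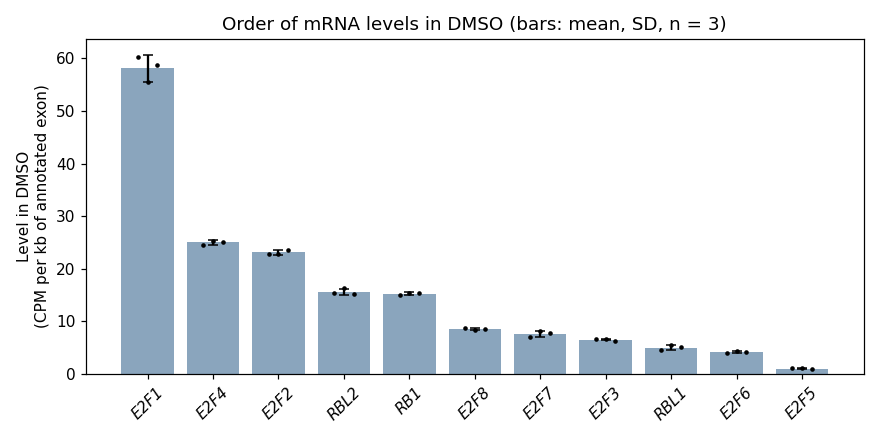
Level of each E2F and pocket protein mRNA in DMSO, in CPM per kb of annotated exon, as the mean of 3 libraries (bars) with the SD (lines) and each library (points). E2F1 stands alone at 58.1 and E2F5 is lowest at 1.06 CPM per kb.

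Against DMSO, members fell with both Fucotrims, led by E2F8 and E2F7, while E2F4 was slightly higher and E2F1 hardly moved. A gene is called here where the adjusted p-value of edgeR's test was under 0.05. Of 40 tests of members, 15 were called lower and 3 higher, and 22 were not called. With Fucotrim I, 5 members were lower and 1 was higher, where 22.1% of all 14188 genes tested were called lower and 21.6% higher. With Fucotrim II, 6 members were lower and 1 was higher, against 25.7% and 25.6% of 14617 genes. With SGN-2FF, 1 member was lower and 1 higher, which is close to the 9.08% and 11.5% of all 14312 genes. With P-SiaFNEtoc, 3 members were lower and 0 higher, against 7.33% and 9.02% of 14259 genes. For the absence of higher calls with P-SiaFNEtoc, edgeR, DESeq2 and limma-voom each counted 0, and no member had a higher value at an unadjusted p under 0.05.

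The median log2 fold change of the 10 members was -0.15 with Fucotrim I, -0.46 with Fucotrim II, -0.08 with SGN-2FF and -0.04 with P-SiaFNEtoc, where that of all genes tested was 0.00, 0.01, 0.00 and 0.00. Treated and DMSO libraries did not overlap for 6, 8, 2 and 5 members on the TMM scale of each inhibitor's own fit, against 52.6%, 67.7%, 36.0% and 33.7% of all genes. On the CPM scale over all libraries, in which levels are printed, the number was 3 in place of 2 with SGN-2FF, as E2F8 and RB1 no longer overlapped and E2F5 did, and the others were unchanged. The changes were mostly small, and only E2F7 and E2F8 with Fucotrim II went past 0.58 on the log2 scale. These are bulk RNA values, in which fewer cells of a cycling state and less RNA per cell cannot be told apart.

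**Figure D2:**
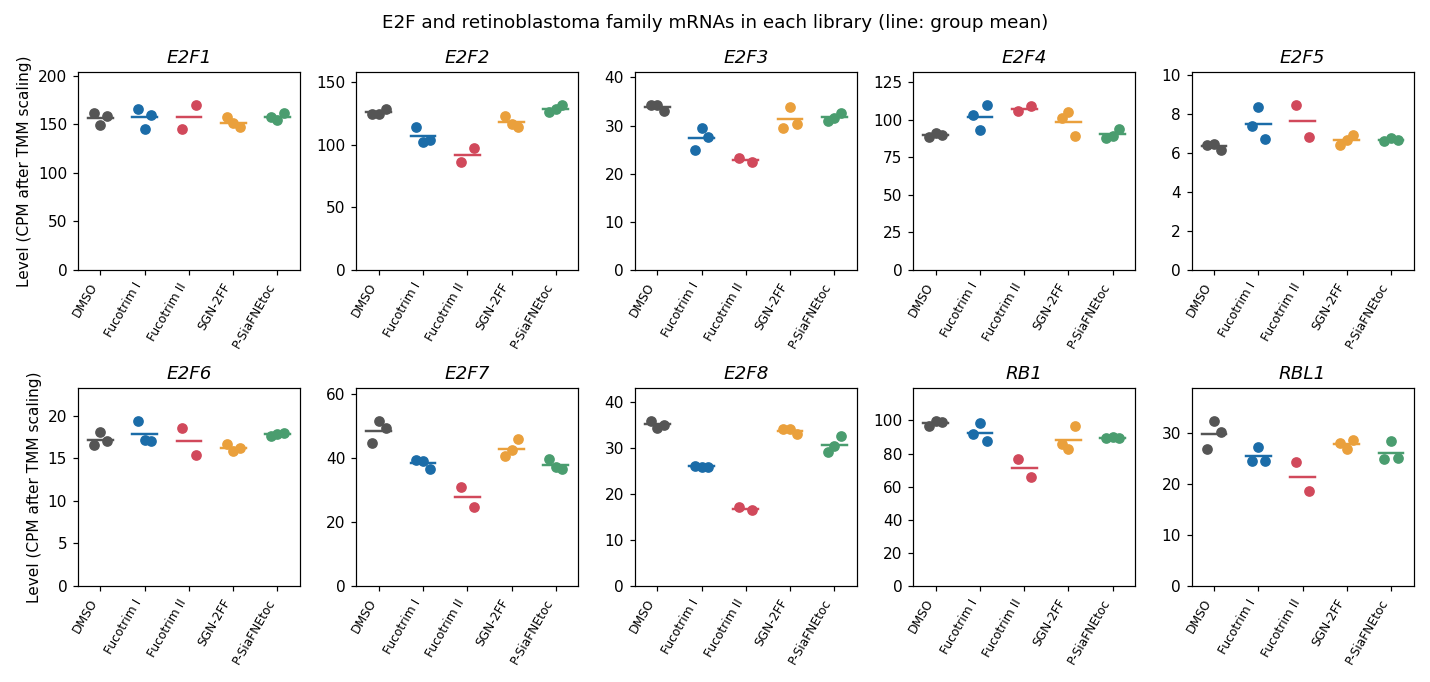
Level of each of the 10 members in each of the 14 libraries, in CPM after TMM scaling, with a line at the group mean and all axes starting at 0. E2F8 falls from 34.5 to 35.9 CPM in DMSO to 17.1 and 16.6 CPM with Fucotrim II, while the E2F1 libraries of all groups overlap.

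E2F8, an atypical repressor of E2F targets, showed the largest fall of any member. Its level was 35.9, 34.5 and 35.1 CPM in the DMSO libraries. With Fucotrim I it was 26.2, 25.9 and 26.0 CPM, and with Fucotrim II 17.1 and 16.6 CPM. Each treated library of the Fucotrims lay below every DMSO library, and replicates lay close together. The log2 fold change was -0.43 with Fucotrim I (standard error 0.07, adjusted p = 5.16e-05) and -1.07 with Fucotrim II (standard error 0.08, adjusted p = 1.92e-05), the second leaving 47.8% of the DMSO level. With P-SiaFNEtoc the libraries held 29.2, 30.5 and 32.6 CPM, also below DMSO throughout. That fall of 0.19 was called (-0.19, adjusted p = 0.0322) but was lost without DMSO replicate 1 or 3 or P-SiaFNEtoc replicate 1 or 2, with an adjusted p of up to 0.152. The call was also lost in the DESeq2 test (0.0974) and in a single fit of all libraries (0.0621). With SGN-2FF the libraries at 34.1, 34.2 and 33.0 CPM lay just below DMSO on this scale but overlapped it on the scale of their own fit, and the change of -0.05 had a 95% interval of -0.17 to 0.08.

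E2F7, the other atypical repressor, fell with both Fucotrims and with P-SiaFNEtoc. The DMSO libraries were at 44.5, 51.4 and 49.4 CPM. With Fucotrim I they were at 39.4, 39.1 and 36.4 CPM (log2 fold change -0.33, adjusted p = 0.000683), and with Fucotrim II at 30.8 and 24.7 CPM (-0.81, adjusted p = 0.000281). With P-SiaFNEtoc the values of 39.6, 37.1 and 36.5 CPM gave a change of -0.35 on the log2 scale (standard error 0.06, adjusted p = 0.000133). None of these treated libraries reached the lowest DMSO library, and each of these calls was kept when any library was left out. With SGN-2FF the values of 40.5, 42.3 and 45.7 CPM overlapped DMSO, and the change of -0.16 was not called (adjusted p = 0.0633). It was called without DMSO replicate 1 (-0.23, adjusted p = 0.0178) and without SGN-2FF replicate 3 (-0.21, adjusted p = 0.0257), and with no filter on low counts (-0.17, adjusted p = 0.0283).

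Among the activators, E2F1 hardly moved while E2F2 and E2F3 fell with both Fucotrims. E2F1 was at 162, 149 and 158 CPM in DMSO, at 166, 145 and 160 CPM with Fucotrim I and at 145 and 170 CPM with Fucotrim II. It was at 157, 151 and 147 CPM with SGN-2FF and at 157, 154 and 162 CPM with P-SiaFNEtoc. Every treated group overlapped DMSO. The 95% interval of its log2 fold change ran from -0.11 to 0.13 with Fucotrim I and from -0.17 to 0.18 with Fucotrim II. It ran from -0.12 to 0.06 with SGN-2FF and from -0.07 to 0.10 with P-SiaFNEtoc.

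E2F2 stood at 125, 125 and 129 CPM in DMSO. It was at 114, 102 and 104 CPM with Fucotrim I (log2 fold change -0.24, standard error 0.06, adjusted p = 0.00141) and at 86.6 and 97.4 CPM with Fucotrim II (-0.46, standard error 0.07, adjusted p = 0.000563). All of these libraries were below DMSO. With SGN-2FF, E2F2 was at 123, 117 and 114 CPM, below DMSO in each library but not called (-0.09, adjusted p = 0.176). With P-SiaFNEtoc it was at 126, 129 and 132 CPM, which overlapped DMSO (0.04, 95% interval -0.05 to 0.12).

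E2F3 stood at 34.2, 34.3 and 33.1 CPM in DMSO. The libraries held 24.9, 29.4 and 27.6 CPM with Fucotrim I (log2 fold change -0.31, standard error 0.08, adjusted p = 0.00242) and 23.3 and 22.4 CPM with Fucotrim II (-0.57, standard error 0.08, adjusted p = 0.000322). The groups did not overlap in either comparison. With P-SiaFNEtoc the libraries at 31.0, 31.5 and 32.5 CPM were also below DMSO, but the change of -0.10 was not called (adjusted p = 0.295). With SGN-2FF they were at 29.5, 33.9 and 30.4 CPM and overlapped DMSO (-0.10, adjusted p = 0.315).

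E2F4, the main E2F of repressor complexes, was the only member called higher, by small amounts. Its calls were lost when some single libraries were left out. It was at 88.5, 91.3 and 90.0 CPM in DMSO, at 103, 93.3 and 110 CPM with Fucotrim I and at 106 and 109 CPM with Fucotrim II. Each of these treated libraries was above DMSO. The log2 fold change was 0.19 with Fucotrim I (adjusted p = 0.0172) and 0.25 with Fucotrim II (adjusted p = 0.00768). The first call was lost without DMSO replicate 1 or 3 or Fucotrim I replicate 3, with an adjusted p of up to 0.106. Its value ran from 0.13 to 0.25 in fits with a library left out. The second was lost without DMSO replicate 1 (0.23, adjusted p = 0.0563) or DMSO replicate 3 (0.24, adjusted p = 0.051). In fits with a library left out, the value with Fucotrim II stayed between 0.22 and 0.27. With SGN-2FF the values of 101, 105 and 89.0 CPM overlapped DMSO, and a log2 fold change of 0.14 only just passed (adjusted p = 0.0498), and it was lost without DMSO replicate 1 or 3 or SGN-2FF replicate 1 or 2 (down to 0.09, adjusted p = 0.353). With P-SiaFNEtoc it was at 87.6, 89.5 and 93.6 CPM, a change of 0.01 with a 95% interval of -0.09 to 0.10.

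E2F5, the partner of E2F4 in this class, was the member with the fewest counts. It ranged from 6.14 to 6.45 CPM in DMSO, from 6.70 to 8.38 CPM with Fucotrim I and was at 8.48 and 6.84 CPM with Fucotrim II. All of these treated libraries were above DMSO, yet neither change was called (0.25 with an adjusted p of 0.13, and 0.26 with an adjusted p of 0.149). Without Fucotrim II replicate 2 the second was called (0.41, adjusted p = 0.0383). With SGN-2FF and P-SiaFNEtoc the change was 0.08 each, not called. RBIS and another gene on the opposite strand cover 18.8% of its exon bases, and the strand setting of the counting is not given in the sources used here.

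E2F6, the Polycomb-linked repressor, was not called with any inhibitor. Its levels ran from 16.6 to 18.1 CPM in DMSO and from 15.4 to 19.4 CPM over the treated libraries, and its log2 fold changes lay between -0.08 and 0.05. Of the 100-base windows of its transcripts, 7.84% also occur in the pseudogenes E2F6P1, E2F6P2 and E2F6P3, between which the counting may have divided reads.

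RB1, the retinoblastoma tumour suppressor, fell most with Fucotrim II. It was at 96.7, 99.6 and 98.9 CPM in DMSO and at 76.9 and 65.9 CPM with Fucotrim II, below every DMSO library (log2 fold change -0.47, adjusted p = 0.00099). With Fucotrim I it was at 91.6, 98.4 and 87.7 CPM, and the groups overlapped (-0.08, 95% interval -0.20 to 0.03). With P-SiaFNEtoc, 89.2, 89.9 and 89.5 CPM lay close together below DMSO (-0.13, adjusted p = 0.0352). With SGN-2FF, 85.5, 83.0 and 96.4 CPM lay below DMSO, the last only just, and overlapped it on the scale of their own fit (-0.15, adjusted p = 0.0424). The call with P-SiaFNEtoc was lost without any one of 5 of its 6 libraries, all but DMSO replicate 1 (adjusted p of up to 0.0997), and that with SGN-2FF without any but SGN-2FF replicate 3 (up to 0.281). Both were also lost in the DESeq2 test (0.0711 with P-SiaFNEtoc, 0.0842 with SGN-2FF) and in the single fit of all libraries (0.204 and 0.112).

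RBL1, the pocket protein p107, is itself made mainly in cycling cells. It was at 27.0, 32.4 and 30.2 CPM in DMSO and at 24.3 and 18.6 CPM with Fucotrim II, below DMSO in both libraries (log2 fold change -0.49, standard error 0.13, adjusted p = 0.0103, and -0.31 without Fucotrim II replicate 2). With Fucotrim I it was at 24.6, 27.4 and 24.5 CPM, which overlapped DMSO. That change of -0.22 was called (adjusted p = 0.036) but was lost without DMSO replicate 2 or 3 or Fucotrim I replicate 1 or 3, with an adjusted p of up to 0.181, in the DESeq2 test (0.0858) and in the single fit (0.0561). With SGN-2FF the change was -0.09 (adjusted p = 0.412). With P-SiaFNEtoc it was -0.19 and not called (adjusted p = 0.0702), although it was called without DMSO replicate 1 (-0.26, adjusted p = 0.0187) or P-SiaFNEtoc replicate 2 (-0.25, adjusted p = 0.0435), and with no filter on low counts (-0.19, adjusted p = 0.0422). RBL2, the third pocket protein, was not called with any inhibitor, at 0.07, 0.22, 0.07 and 0.08 with Fucotrim I, Fucotrim II, SGN-2FF and P-SiaFNEtoc. With Fucotrim II its value depended on the library, being called at 0.35 without Fucotrim II replicate 2 (adjusted p = 4.29e-05) and 0.05 without replicate 1, and the single fit of all libraries also called it, at 0.22. With P-SiaFNEtoc it was called without P-SiaFNEtoc replicate 3 (0.14, adjusted p = 0.0352). Genes on the opposite strand, AKTIP among them, cover 16.4% of its exon bases.

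**Figure D3:**
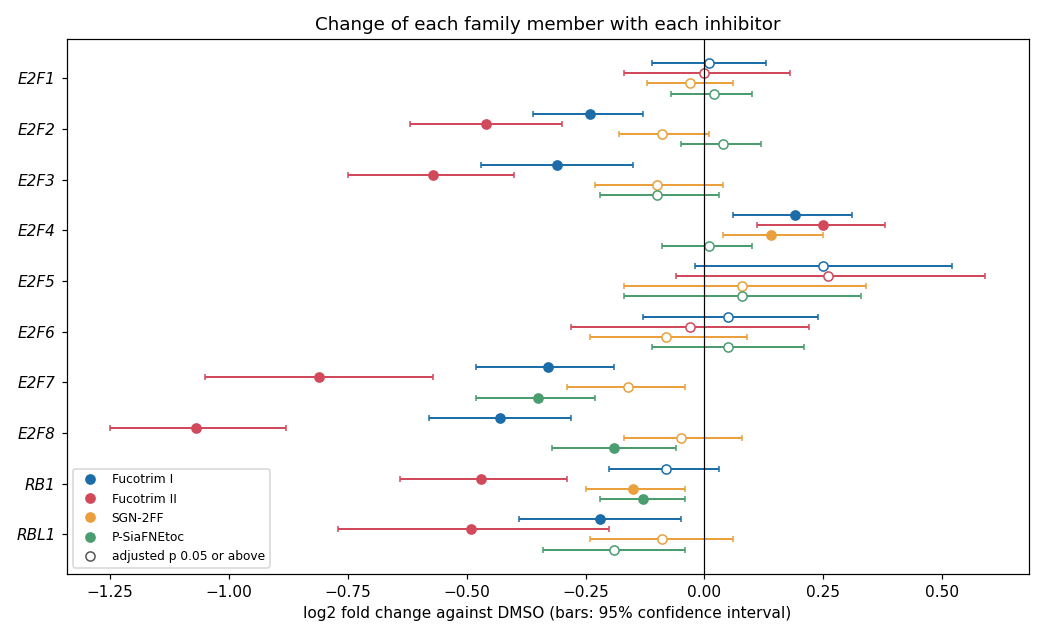
Log2 fold change of each member against DMSO, by inhibitor, with its 95% confidence interval (lines). Filled points have an adjusted p under 0.05. E2F8 and E2F7 with Fucotrim II lie furthest to the left at -1.07 and -0.81, E2F1 lies around 0, and E2F4 is the only member with filled points to the right.

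The make-up of the E2F mRNA pool moved with these changes. Summed per kb over the 8 E2F genes, E2F7 and E2F8 made up 12.1 ± 0.400% in DMSO (SD, n = 3), 9.58 ± 0.548% with Fucotrim I (n = 3) and 7.63% and 6.18% with Fucotrim II. Their share was 10.2 ± 0.0577% with P-SiaFNEtoc and 11.4 ± 0.624% with SGN-2FF (n = 3 each). E2F4 and E2F5 took 19.4 ± 0.513% in DMSO, 22.9 ± 1.13% with Fucotrim I and 24.4% to 26.0% with Fucotrim II. Their share was 21.7 ± 1.15% with SGN-2FF and 19.8 ± 0.231% with P-SiaFNEtoc, the latter within the range of the DMSO libraries. The share of E2F1, E2F2 and E2F3 together stayed between 62.5% and 66.9% in every library, as E2F1 supplies most of it. These shares were built from values already shown and carry no test.

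**Figure D4:**
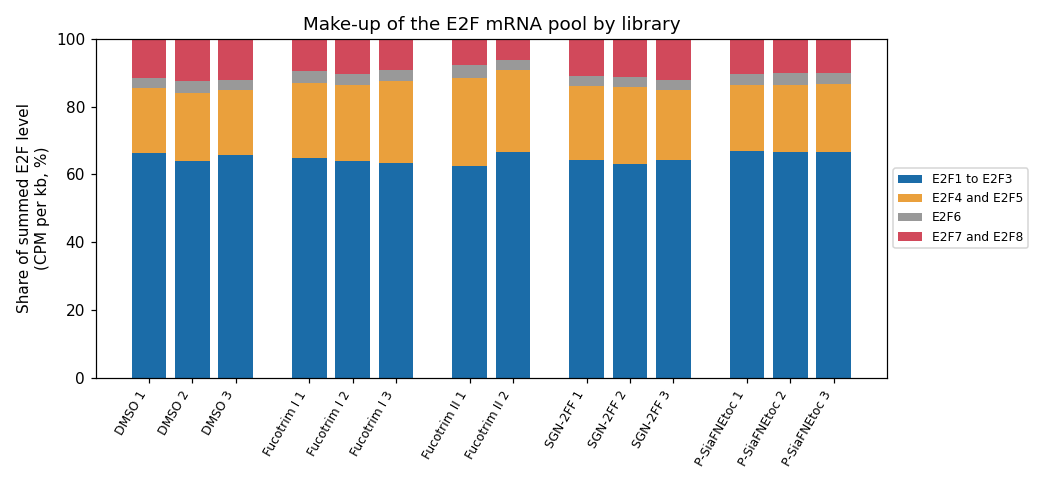
Share of the summed E2F level (CPM per kb, in %) held by each E2F class in each library. The segment of E2F7 and E2F8 shrinks from 12.1% on average in DMSO to 7.63% and 6.18% in the Fucotrim II libraries, and that of E2F1, E2F2 and E2F3 stays near its DMSO height.

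Ratios of counts within a library, which no scaling between libraries can change, gave the same picture for E2F8 and E2F2. Per 100 counts of E2F1 there were 22.1, 23.1 and 22.2 counts of E2F8 in DMSO, 15.8, 17.8 and 16.3 with Fucotrim I, and 11.9 and 9.75 with Fucotrim II. With P-SiaFNEtoc there were 18.6, 19.8 and 20.1, also below DMSO, and with SGN-2FF 21.7, 22.6 and 22.5, which overlapped it. For E2F2 there were 76.8, 83.7 and 81.8 in DMSO, 68.6, 70.3 and 64.9 with Fucotrim I, and 59.9 and 57.4 with Fucotrim II, and the libraries of the other inhibitors overlapped DMSO. For E2F4 the DMSO libraries at 54.5, 61.3 and 57.0 lay below those of Fucotrim I at 62.1, 64.2 and 69.2 and of Fucotrim II at 73.0 and 63.9. The E2F4 ratio overlapped DMSO with SGN-2FF, at 64.4, 69.6 and 60.5, and with P-SiaFNEtoc, at 55.9, 58.0 and 57.7. Per 100 counts of RBL2, RB1 had 77.1, 75.5 and 80.8 counts in DMSO and lay below them with every inhibitor. It was at 73.1, 68.4 and 68.5 with Fucotrim I, at 47.1 in the lower Fucotrim II library, at 64.3, 61.6 and 75.4 with SGN-2FF and at 64.4, 64.4 and 73.5 with P-SiaFNEtoc. The pairs were chosen after their values had been seen, and the ratios carry no test.

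Partners of the E2F proteins and the members of the DREAM complex, which joins RBL1 or RBL2 and E2F4 to the MuvB core, were mostly lower with the Fucotrims. Of 12 genes of this list, 11 were tested, and TFDP3 had 0 counts in every library. With Fucotrim I, 7 were called lower and 1 higher (median log2 fold change -0.17), where 22.1% of all genes were lower and 21.6% higher. With Fucotrim II the counts were again 7 and 1 (median -0.23, all genes 25.7% and 25.6%), with SGN-2FF 2 and 0 (median -0.02, all genes 9.08% and 11.5%) and with P-SiaFNEtoc 2 and 0 (median -0.02, all genes 7.33% and 9.02%). A single fit of all libraries gave 1 lower with each of the last pair and 2 higher with Fucotrim II. Where 0 were higher, DESeq2, limma-voom and an unadjusted p under 0.05 also gave 0. LIN52, a MuvB subunit that carries the DYRK1A phosphorylation site for DREAM assembly, was lower with all 4 inhibitors, at -0.66 with Fucotrim I, -0.82 with Fucotrim II, -0.37 with SGN-2FF and -0.38 with P-SiaFNEtoc. LIN37, another MuvB subunit, was higher with Fucotrim I (0.44, adjusted p = 0.00391) and Fucotrim II (0.79, adjusted p = 0.000937). It was the only gene of the list called higher, and its value is uncertain, since ENSG00000188223 on the same strand shares 26.7% of its exon bases and another gene on the opposite strand covers 41.8%. LIN9 was lower with Fucotrim I (-0.45), Fucotrim II (-0.76) and P-SiaFNEtoc (-0.17, adjusted p = 0.0364, lost without any single library), and LIN54 with Fucotrim I (-0.27, lost without Fucotrim I replicate 3) and Fucotrim II (-0.58).

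The factors that MuvB joins later in the cell cycle also fell with the Fucotrims. FOXM1, which drives genes of mitosis, fell by 0.42 on the log2 scale with Fucotrim I, by 0.69 with Fucotrim II and by 0.13 with SGN-2FF (adjusted p = 0.00963, lost in the single fit at 0.0898), and was not called with P-SiaFNEtoc (-0.07, adjusted p = 0.195). ITFG2 on the opposite strand covers 15.9% of its exon bases. MYBL2, the B-MYB partner of MuvB, was lower with Fucotrim I (-0.20) and Fucotrim II (-0.60) and was not called with SGN-2FF (-0.03) or P-SiaFNEtoc (-0.02). Of the DP partners, TFDP1 was called only with Fucotrim II (-0.23, adjusted p = 0.0124), and TFDP2 was not called. The TFDP1 call was lost without DMSO replicate 1 (adjusted p = 0.0631) or 3 (0.0735) and with the replicate number as a block (0.221). RBBP4, a histone-binding subunit, was lower with Fucotrim I (-0.17, lost without Fucotrim I replicate 3) and Fucotrim II (-0.21). The second call was lost without any single DMSO library and with the replicate number as a block (adjusted p = 0.219). SYNC on the opposite strand covers 22.8% of the exon bases of RBBP4. The call of DYRK1A, the kinase of LIN52, with Fucotrim I (-0.14, adjusted p = 0.0485) was lost in 5 of 6 fits with a library left out.

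Genes that E2F proteins are known to control were mostly lower with the Fucotrims. Of 30 such genes for replication, nucleotide supply and the G1/S and G2 steps, all were tested, and 24 were lower and 0 higher with Fucotrim I, against 22.1% and 21.6% of all genes. With Fucotrim II, 27 were lower and 1 was higher, against 25.7% and 25.6%. With SGN-2FF the counts were 5 and 1, against 9.08% and 11.5%, and the number lower was 3 in the single fit of all libraries and 8 with no filter. With P-SiaFNEtoc they were 13 and 1, against 7.33% and 9.02%, and the number lower was 6 in the single fit. For the absence of higher calls with Fucotrim I, the count at an unadjusted p under 0.05 and by DESeq2 and limma-voom was also 0, and it was 1 with the replicate number as a block. The medians of the list were -0.20, -0.48, -0.09 and -0.10 in that order, against 0.00 or 0.01 for all genes. CCNA2 (cyclin A2) fell most with Fucotrim I (-0.57, standard error 0.05) and Fucotrim II (-1.19, standard error 0.06). RRM2, the small subunit of ribonucleotide reductase, fell most with SGN-2FF (-0.35, standard error 0.03) and P-SiaFNEtoc (-0.29, standard error 0.04).

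CDT1, a licensing factor for replication origins, went the other way with Fucotrim II (0.29, adjusted p = 0.0383) and P-SiaFNEtoc (0.21, adjusted p = 0.0252). The first call was lost without any single DMSO library and with the replicate number as a block (0.32, adjusted p = 0.056). Its value was 0.14 without Fucotrim II replicate 2. The second call was lost without P-SiaFNEtoc replicate 1 or 3 (adjusted p of up to 0.207) and in the single fit (0.21, adjusted p = 0.15). Without DMSO replicate 2 the second value was 0.13. POLA2, a subunit of DNA polymerase alpha, was higher with SGN-2FF (0.15, adjusted p = 0.0207), a call lost without DMSO replicate 3 or SGN-2FF replicate 1 or 2 (up to 0.149). The POLA2 call was also lost in the DESeq2 test (0.0575) and in the single fit (0.0953). Windows with a word of 8 letters, as in the sequences above, were found for 16 of the 26 genes of this list with a RefSeq window, against 3.99% of all genes with one.

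Upstream of the pocket proteins, the kinases, cyclins and inhibitors that set RB1 phosphorylation were mixed. Of 15 genes, 13 were tested, CCND2 and CDKN1C having too few counts. The numbers lower and higher were 5 and 3 with Fucotrim I, 5 and 1 with Fucotrim II, 4 and 1 with SGN-2FF and 3 and 2 with P-SiaFNEtoc, beside shares of all genes of 22.1% and 21.6%, 25.7% and 25.6%, 9.08% and 11.5%, and 7.33% and 9.02%. The number higher with P-SiaFNEtoc was 1 in the single fit, and the medians were 0.04, -0.16, -0.08 and -0.07. CDK6, a cyclin D kinase of RB1, had the largest called fall with every inhibitor, at -0.59 with Fucotrim I, -0.95 with Fucotrim II, -0.45 with SGN-2FF and -0.25 with P-SiaFNEtoc. CDKN1A (p21) had the largest rise with Fucotrim I (0.49, standard error 0.05). CDKN1B (p27) had the largest rise with Fucotrim II (0.33, standard error 0.06) and P-SiaFNEtoc (0.24, standard error 0.04). CDK4 was called higher with SGN-2FF (0.10, adjusted p = 0.0439), which was lost in 5 of 6 fits with a library left out. The call was also lost with DESeq2 size factors (0.0502), no filter (0.0786) and the replicate number as a block (0.0681). The DESeq2 test (0.0829) and the single fit (0.341) did not call it either.

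Factors of E2F and RB protein turnover and dephosphorylation were mostly lower with the Fucotrims. Of 9 genes, 6 were lower with each Fucotrim, 3 with SGN-2FF and 1 with P-SiaFNEtoc, and 0 were higher with any of them by edgeR, DESeq2 and limma-voom and at an unadjusted p under 0.05. Of all genes, 22.1%, 25.7%, 9.08% and 7.33% were called lower and 21.6%, 25.6%, 11.5% and 9.02% higher in that order, so the 1 gene with P-SiaFNEtoc is a share near that of all genes. The 3 with SGN-2FF were 1 in the DESeq2 test, the single fit and with the replicate block. CDC20, an activator of the anaphase-promoting complex, fell most with Fucotrim I (-0.41) and Fucotrim II (-1.17). CCNF (cyclin F), a ubiquitin ligase subunit for E2F activators and atypical E2Fs, fell most with SGN-2FF (-0.20) and P-SiaFNEtoc (-0.27). Among 9 partners of E2F6 in its Polycomb complex, 8 were tested, RING1 having at most 1 count per library. With Fucotrim I, 2 were lower, a share near the 22.1% of all genes and 1 in the DESeq2 test, and the larger fall was that of PCGF6 (-0.24, adjusted p = 0.0372, lost without DMSO replicate 2 or 3 or Fucotrim I replicate 2 or 3). With Fucotrim II, 4 were lower, against 25.7% of all genes, and 1 in the DESeq2 test and with the replicate block, the largest fall being that of CBX3 (-0.33). With SGN-2FF, 1 was higher, a share near the 11.5% of all genes, and this was MAX (0.17, adjusted p = 0.032, lost without any DMSO library or SGN-2FF replicate 1). With P-SiaFNEtoc none was called by edgeR, DESeq2 or limma-voom, with 1 lower and 0 higher at an unadjusted p under 0.05.

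**Figure D5:**
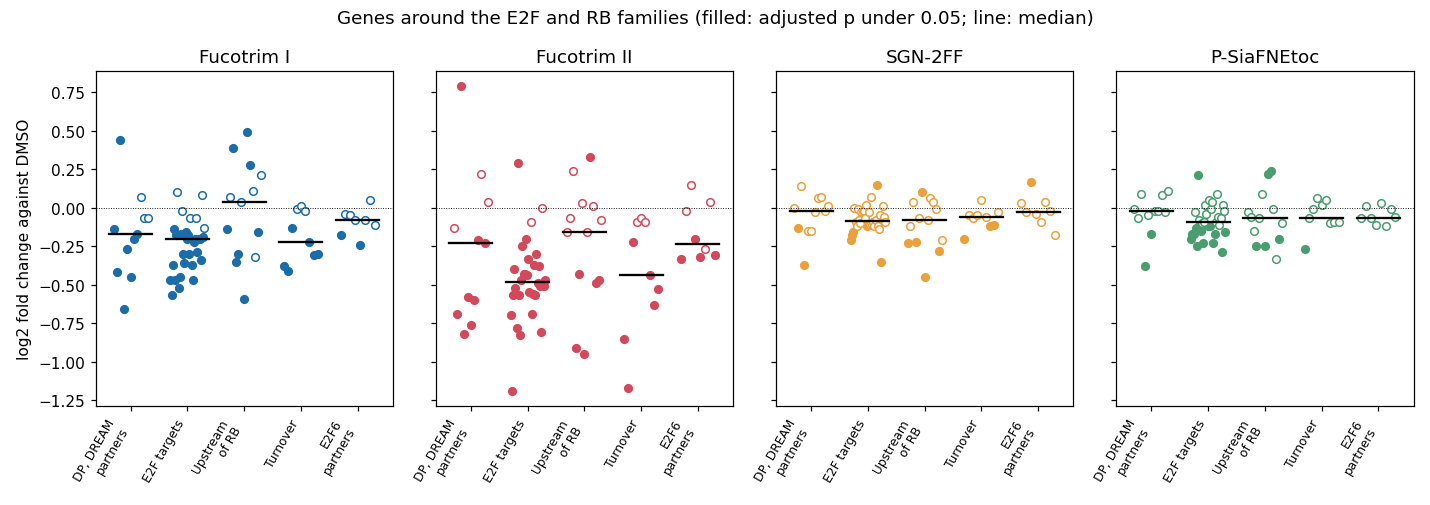
Log2 fold change against DMSO of the genes around the E2F and RB families, by list and inhibitor. Each point is a gene, filled where the adjusted p was under 0.05, and lines are list medians. Most E2F targets lie below 0 with each inhibitor, with medians of -0.20 and -0.48 for Fucotrim I and Fucotrim II and of -0.09 and -0.10 for SGN-2FF and P-SiaFNEtoc.

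The genes with levels most like those of a member across the 14 libraries were found among 11836 genes by the root mean square difference of log2 CPM, each gene centred on its own mean. For E2F8 they were TPX2 at 0.062, GPSM2 at 0.073, GTSE1 at 0.074, BUB1B at 0.077 and PBK at 0.078, where the median over all genes was 0.358. For RB1 they were FAM91A1 at 0.039, REEP3 at 0.050, SSX2IP at 0.056, RNF138 at 0.057 and SCOC at 0.057 (median 0.207). For E2F1 they were RANGAP1 at 0.026, SPG21 at 0.030, PREB at 0.034, ST14 at 0.037 and TLN1 at 0.037 (median 0.174). The libraries share their groups, so these distances describe the data and carry no test.

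The markers of the cell type were in place, and other features of the libraries moved with the groups. Of the prostate luminal markers described here, TMPRSS2 rose most with Fucotrim I (1.38) and Fucotrim II (1.41), KLK3 with SGN-2FF (1.32) and KLK2 with P-SiaFNEtoc (0.76). The 4 epithelial markers summed to 1314 to 1396 CPM in DMSO, with KRT8 the most abundant, and to 1832 to 1911 CPM with Fucotrim I, 1785 and 2037 with Fucotrim II, 1578 to 1635 with SGN-2FF and 1582 to 1637 with P-SiaFNEtoc. Of these markers 3, 3, 4 and 3 were called higher, where 21.6%, 25.6%, 11.5% and 9.02% of all genes were, with KRT8 at 0.75, 0.56, 0.45 and 0.40 and KRT18 at 0.47, 0.59, 0.16 and 0.19 in that order. Without Fucotrim II replicate 2 the value of KRT8 with Fucotrim II was 0.36. Markers of leukocytes had at most 21 counts per gene and library, with CD3E at 0 throughout, and those of endothelial cells at most 3. Of the fibroblast markers, COL1A1 led with at most 485 counts and was higher with Fucotrim II (0.59, adjusted p = 0.00185), while COL1A2 and DCN had at most 3 and 13 counts. The part of these features in the E2F and RB values was not tested.

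Mitochondrially encoded genes took 6.05%, 7.03% and 5.98% of the counts in DMSO, and 8.67%, 11.9% and 14.2% with Fucotrim I. The share was 17.0% and 12.1% with Fucotrim II, 8.27%, 8.27% and 8.68% with SGN-2FF and 6.11%, 6.83% and 6.64% with P-SiaFNEtoc. The largest called rise among these genes was that of ND1 with Fucotrim I (1.11, adjusted p = 0.0156, lost without DMSO replicate 1 or 3), of ND3 with Fucotrim II (1.62) and of RNR2 with SGN-2FF (0.53). With these genes left out before scaling, 1 of the 40 member calls changed, that of E2F4 with SGN-2FF (0.14, adjusted p = 0.0533).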

How the data were processed

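RNA-seq counts of 14 CWR22Rv1 libraries were used. The authors made stranded mRNA libraries, sequenced single reads and used Cutadapt for trimming, HISAT2 for mapping to hg38 and featureCounts for counting, in Galaxy. The authors deposited raw counts in 4 tables, 1 per inhibitor, and the 3 DMSO libraries had identical counts in each. The annotation release, strand setting and treatment of reads with several matches are not given in the sources used here. Doses and the time come from the methods of the study, which state 3 biological repeats per condition. Only 2 Fucotrim II libraries were among the 14 used here.

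Each inhibitor was fitted with DMSO alone by edgeR 4.0.16 in R 4.3.3 (filterByExpr with a minimum count of 10 and total of 15, TMM, robust quasi-likelihood test), with Benjamini-Hochberg adjustment over all genes tested and a threshold of 0.05. The standard error is the size of the log2 fold change over the square root of F, and intervals are 95%. Levels per library are CPM on 1 TMM scale over the 14 libraries, with a count of 0.5 added for pattern distances, and kilobases are from GENCODE exons. Counting error at 80 counts is larger than at 3256, so E2F5 is the least precise member. The test was checked on simulated counts. Alternatives used limma 3.58.1, DESeq2 1.42.0, other filters, scalings and thresholds, a replicate block and each library left out.

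The members and gene lists were chosen with earlier results of these data known. Values are given for all members, RBL2, the genes of the DP and DREAM list (by name only where not called), the largest called fall and rise of each other list (mean of at least 50 counts) and the 5 nearest genes of E2F1, E2F8 and RB1. Some markers of prostate luminal cells are not reported here.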

Additional observations from a re-analysis of the deposited data

How the results depend on the processing

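The falls of E2F2, E2F3, E2F7 and E2F8 with both Fucotrims, of RB1 and RBL1 with Fucotrim II and of E2F7 with P-SiaFNEtoc were called in every alternative that kept the thresholds. Over all members, 367 of 410 results under settings other than leaving out a library kept direction and call, 37 lost the call, 3 gained it and 3 changed sign. With a log2 fold change beyond 0.58 also asked for, 0 members were lower and 0 higher with Fucotrim I, 2 lower and 0 higher with Fucotrim II, 0 lower and 0 higher with SGN-2FF and 0 lower with P-SiaFNEtoc. At an adjusted p under 0.01, the counts were 0 higher with Fucotrim I, 0 lower and 0 higher with SGN-2FF and 1 lower with P-SiaFNEtoc. The DESeq2 test and a single fit of all libraries each gave 0 lower and 0 higher with SGN-2FF and 1 lower with P-SiaFNEtoc. No filter gave 2 lower with SGN-2FF and added RBL1 with P-SiaFNEtoc, and with SGN-2FF DESeq2 size factors, limma-voom and leaving out mitochondrial genes gave 0 higher each.

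A pairing of the samples by replicate number was not shown. Same-number correlations were 0.151, 0.135 and 0.0208 with Fucotrim I and 0.0655, -0.0256 and -0.0679 with SGN-2FF. They were -0.0436, 0.0239 and -0.0202 with P-SiaFNEtoc and -0.167 and -0.23 with Fucotrim II. Some libraries correlated best with their own number and others did not. The correlations used deviations from the means of small groups, so they cannot exclude a pairing. With the replicate block, 0 members were higher with Fucotrim II (E2F4 at 0.25, adjusted p = 0.152), RBL1 was called with P-SiaFNEtoc (-0.18, adjusted p = 0.0474), and no other member call changed. The library names of Fucotrim II carry other numbers than its titles. By those names the correlations were 0.23 and 0.0649, and a block by them changed no member call.

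Leaving out a library gave 0 to 1 members higher with Fucotrim I, 0 to 2 higher with Fucotrim II, 0 to 2 lower and 0 to 1 higher with SGN-2FF, and 1 to 3 lower with P-SiaFNEtoc. Values near 0 changed sign. E2F1 with Fucotrim I ran from -0.03 to 0.06 (-0.01 with no filter), with Fucotrim II from -0.13 to 0.11 (-0.00 in limma-voom and with no filter) and with P-SiaFNEtoc from -0.02 to 0.04. E2F6 ran from -0.01 to 0.09 with Fucotrim I and from -0.17 to 0.10 with Fucotrim II, and E2F4 from -0.02 to 0.03 with P-SiaFNEtoc. Where a group was left with 1 library, that library was assumed to vary like the others. The causes of these changes were not tested. Of 42 calls of named genes in the E2F and RB lists (markers and mitochondrial genes aside), 29 held in every alternative that kept the thresholds. The DESeq2 test also lost the calls of DYRK1A and PCGF6 with Fucotrim I, LIN9 with P-SiaFNEtoc and MAX with SGN-2FF (adjusted p of 0.102 to 0.112). Among list counts, the E2F6 partners lower with Fucotrim II were 1 instead of 4 in the DESeq2 test and with the replicate block, and the E2F targets lower with P-SiaFNEtoc were 6 instead of 13 in the single fit. The list counts also moved with the thresholds. With a log2 fold change beyond 0.58 also asked for, 0 E2F targets instead of 24 were lower with Fucotrim I. Under that threshold, 1 DP and DREAM gene instead of 7 and 1 gene upstream of RB1 instead of 5 were lower with Fucotrim I. E2F5, with the fewest counts, had the 95% interval of -0.06 to 0.59 with Fucotrim II.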
